A study of Mus musculus with 2 samples.

Results

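The insulin-like growth factor (IGF) genes described here are 10 of the 32589 features in the count files: the ligands Igf1 and Igf2, the receptor Igf1r, the 6 binding protein genes Igfbp2, Igfbp3, Igfbp4, Igfbp5, Igfbp6 and Igfbp7, and the long non-coding RNA H19. They were taken by symbol, each symbol occurs once, and all 10 had at least 20 unique molecular identifiers (UMIs, tags that count single RNA molecules) over both libraries. The data are single-cell RNA counts from the hypertrophied left ventricle of mice, 6 weeks after transverse aortic constriction (TAC), in which a band narrows the aorta and raises the pressure the ventricle works against. There is a library labelled wild-type and a library labelled p53 knockout, and each was made from a mixture of 3 hearts. Both groups had TAC, the labels give no strain, age or kind of knockout allele, and no library of unoperated hearts was analysed here. With 1 library per group there is no replicate, so no test is given, and every interval printed is an exact 95% interval that covers counting error only.

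The total count was 18897913 UMIs over 16060 barcodes under the wild-type label and 20918824 UMIs over 10118 barcodes under the p53 knockout label. Filters kept 14764 and 9298 of these as cells (median 936 and 1569 UMIs), and 105 barcodes occurred in both libraries. Trp53, the gene that encodes p53, was no lower under the knockout label: its level (in CPM, counts scaled to a common total of nuclear-encoded UMIs) was 38.9 CPM under the wild-type label and 54.7 CPM under the knockout label. A count from outside the altered part of the gene would not check the label, and the labels do not say which part was altered. Xist was at 2.38 and 929 CPM and the summed Y-linked genes at 539 and 7.34 CPM, so the sex of the hearts and the genotype label cannot be told apart. The labels give the cells as cardiomyocytes, but cardiomyocyte-like cells were 32.7% and 9.20% of kept cells. The summed level of 12 cardiomyocyte markers in the 9 other classes lay between 8725 and 15014 CPM under the wild-type label and between 1769.9 and 4062 CPM under the knockout label. The part of these transcripts in the differences below was not tested.

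IGF1 and IGF2 are secreted growth factors that act mainly through the IGF1 receptor, a tyrosine kinase that signals through PI3K and Akt and through the MAP kinases. In blood and tissue most of the ligand is bound by IGF binding proteins, which prolong its life, hold it at the matrix or the cell surface, or keep it from the receptor until a protease cuts them. IGFBP7 is a more distant relative that binds IGFs weakly and sits in the basement membrane of vessels. H19 and Igf2 are neighbouring imprinted genes: in most fetal tissues H19 is read from the maternal and Igf2 from the paternal chromosome, and both are strongly reduced after birth. In the heart IGF1 signalling is known for its part in the growth of cardiomyocytes.

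On mm10, H19 (ENSMUSG00000000031) lies on the minus strand of chromosome 7 from 142575529 to 142578143, and Igf2 (ENSMUSG00000048583) lies upstream on the same strand from 142650766 to 142666816, a gap of 72.6 kb. Each gene also holds a microRNA, miR-675 in an exon of H19 and miR-483 in an intron of Igf2. The mature forms are printed because the host transcripts are the only trace of them in these data, which do not count microRNAs. Capitals mark the seed, bases 2 to 8, the stretch that pairs with targets, and the 4 seeds all differ. Sequences and coordinates are from RefSeq on GRCm38.p6, the assembly of mm10.
miR-675-5p (chr7:142577112-142577133, minus strand): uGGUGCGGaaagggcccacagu
miR-675-3p (chr7:142577078-142577099, minus strand): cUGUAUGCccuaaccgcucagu
miR-483-5p (chr7:142654968-142654989, minus strand): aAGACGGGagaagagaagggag
miR-483-3p (chr7:142654932-142654952, minus strand): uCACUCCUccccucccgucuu

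The 2 binding protein genes with the largest differences in vascular endothelial-like cells, Igfbp3 and Igfbp5, are shown with the 150 bases upstream of their RefSeq start. Igfbp3 (ENSMUSG00000020427) spans 7206086 to 7213923 on the minus strand of chromosome 11, and Igfbp5 (ENSMUSG00000026185) spans 72857932 to 72874884 on the minus strand of chromosome 1, next to Igfbp2. Capitals mark a match to TATATA in Igfbp3 and to TATTTAA in Igfbp5, AT-rich stretches of the TATA type close to the start.
Igfbp3 (chr11:7213924-7214073, minus strand): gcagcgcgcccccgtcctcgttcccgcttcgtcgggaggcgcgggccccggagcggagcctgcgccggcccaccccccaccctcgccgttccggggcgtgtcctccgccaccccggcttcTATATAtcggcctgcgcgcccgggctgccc
Igfbp5 (chr1:72874866-72875015, minus strand): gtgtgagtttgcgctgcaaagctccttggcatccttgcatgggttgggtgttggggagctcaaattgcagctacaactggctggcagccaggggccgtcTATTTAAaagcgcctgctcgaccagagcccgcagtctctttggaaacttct
Searched on both strands in the same 150-base window of 32851 promoters, TATATA was found in 2.97%, TATTTAA in 2.23% and TATAAA in 7.57%. TATAAA was present once upstream of Igfbp4, close to the start. Upstream of Igfbp6 the 1 match was on the opposite strand, at the end of the window far from the start. No 2 of these motifs overlapped in the printed windows. A match is a description of the letters and not of a bound factor. RefSeq promoter entries were matched for 9 of the 10 genes. H19 had none.

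Cells were assigned to classes by fixed marker genes, with all 10 IGF genes left out of the genes used for clustering, so none of the levels below helped to form a class. A total of 10 classes held at least 50 cells in both libraries. The source of each transcript was recorded as the share of its UMIs that came from each class. In the library labelled wild-type, endocardial-like cells were 10.8% of kept cells and held 63.4% of Igf2, 74.7% of H19 and 50.1% of Igfbp5 UMIs. Vascular endothelial-like cells were 18.8% of cells and held 51.2% of Igfbp3 UMIs. Fibroblast-like cells were 21.2% of cells and held 43.3% of Igf1, 53.6% of Igfbp4, 39.7% of Igfbp6 and 46.2% of Igfbp7 UMIs. Mesothelial-like cells, the outer lining of the heart, were 1.24% of cells and held 20.03% of Igfbp6 UMIs, and endocardial-like cells held the same share of it. Under the p53 knockout label the largest source stayed the same class for Igf1, Igf2, H19, Igfbp3, Igfbp4, Igfbp6 and Igfbp7. For Igfbp5 it was vascular endothelial-like cells, with 43.6%, and for Igf1r it was endocardial-like cells, with 29.9%, where cardiomyocyte-like cells had led with 27.7%. These shares also depend on how many cells of each class each library held.

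**Figure D1:**
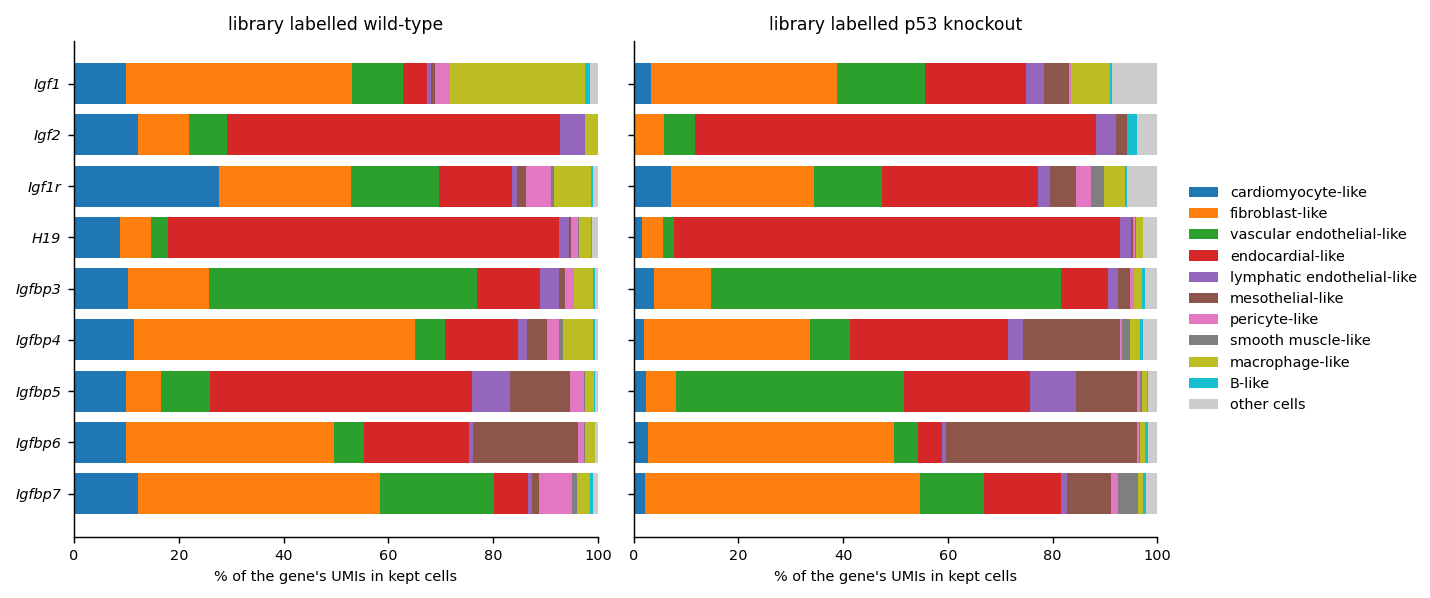
Share of each gene's UMIs in kept cells (x axis, %) by cell class (colours), for the library labelled wild-type (left) and p53 knockout (right); Igfbp2 is left out because it had 1 UMI in the first. Endocardial-like cells held 74.7% and 85.1% of H19, while the vascular endothelial-like share of Igfbp5 was 9.29% and 43.6%.

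Igf1 (ENSMUSG00000020053, chromosome 10, 87858265 to 87937042, plus strand) was highest in macrophage-like and fibroblast-like cells among the 10 classes with at least 50 cells in both libraries. Adipocyte-like cells, with 30 and 58 cells, had more: 312 CPM (interval 171 to 524, 14 UMIs) and 320 CPM (interval 229 to 436, 40 UMIs). In macrophage-like cells it was 272 CPM (interval 242 to 305, 295 UMIs) under the wild-type label and 143 CPM (interval 121 to 168, 145 UMIs) under the knockout label, a log2 ratio of -0.93 (interval -1.23 to -0.64). In fibroblast-like cells the levels were 145 and 165 CPM, a log2 ratio of 0.18 (interval 0.02 to 0.35). The macrophage-like level thus stood above the fibroblast-like level under the wild-type label, and their intervals overlapped under the other. In endothelial classes the difference ran the other way. Endocardial-like cells had 29.6 CPM under the wild-type label and 95.4 CPM under the knockout label, a log2 ratio of 1.67 (interval 1.26 to 2.13). Vascular endothelial-like cells were at 45.5 and 101 CPM, giving a log2 ratio of 1.14 (interval 0.83 to 1.47), and lymphatic endothelial-like cells had 38.4 and 103 CPM.

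These Igf1 levels need the background of free RNA beside them. B-like cells, taken as a class that lacks Igf1, had 119 CPM under the wild-type label from 10 UMIs and 27.1 CPM under the knockout label from 8 UMIs. With every cell thinned to 500 UMIs, 9.25% and 5.52% of macrophage-like cells had an Igf1 UMI, against 1.205% and 0.84% of B-like cells. Under the wild-type label the CPM intervals of fibroblast-like and of the 3 endothelial classes were not above that of B-like cells, and 1.07% of endocardial-like and 1.95% of vascular endothelial-like cells had an Igf1 UMI after thinning. The endothelial ratios above therefore start from levels not told apart from that of B-like cells, which rested on 10 UMIs. Cardiomyocyte-like cells of that library were lower, at 18.3 CPM (interval 15.1 to 22.0), so the B-like level is a wide yardstick and not a measured background. The macrophage-like cells all came from 1 cluster, led by F13a1, Mrc1 and Cd163, genes of resident tissue macrophages. Its 10 leading genes also included Cd74, H2-Eb1 and H2-Ab1. The summed monocyte or dendritic markers of the cluster were 2709 and 3658 CPM, and its macrophage markers 12157 and 12106 CPM. The part of this in the Igf1 difference was not tested. Among endothelial clusters Igf1 reached 174 CPM in venous-like cells and 214 CPM in an unnamed vascular cluster led by Sema3a, Adamtsl1 and Inhba, both under the knockout label. The 17 wild-type-label cells of that unnamed cluster were at 373 CPM (interval 171 to 709, 9 UMIs), with a log2 ratio of -0.88 (interval -1.76 to 0.35). In the same venous-like cluster it was 75.3 CPM under the wild-type label, a log2 ratio of 1.19 (interval 0.59 to 1.86) within 1 cluster of 286 and 282 cells. In the largest vascular cluster (cluster 1, 2525 and 284 cells) it was 44.2 and 32.2 CPM, a log2 ratio of -0.38 (interval -1.71 to 0.58), an interval that lies below the ratio of the whole class. Igf1os, which overlaps Igf1 on the other strand, had 32 and 34 UMIs, and whether the counting used strand is not given in the sources used here.

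Igf2 was scarce: 41 UMIs under the wild-type label and 51 under the knockout label over all kept cells, or 2.50 and 2.75 CPM. Endocardial-like cells, which line the chambers, had 14.8 CPM (interval 9.68 to 21.7, 26 UMIs) and 9.95 CPM (interval 7.07 to 13.6, 39 UMIs). Their log2 ratio was -0.59 (interval -1.33 to 0.20), so the 2 libraries were not separated at this depth. In no class but the lymphatic endothelial-like did the point estimate come within 2-fold of the endocardial-like value under the wild-type label, and that rested on 2 UMIs. By the CPM intervals the endocardial-like level was not above that of B-like cells in either library. B-like cells had 0 and 1 UMIs (intervals 0 to 43.7 and 0.09 to 18.9 CPM). Pericyte-like and smooth muscle-like cells had 0 Igf2 UMIs in both libraries, with upper bounds of 4.82 and 10.5 CPM in the first. In smooth muscle-like cells the upper bounds were 78.1 and 16.1 CPM, above the endocardial-like levels, so a lower level is not shown there.

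H19 had the same leading class and far more UMIs. In endocardial-like cells it was 738 CPM (interval 699 to 779.7, 1295 UMIs) under the wild-type label and 268 CPM (interval 252 to 285, 1051 UMIs) under the knockout label, 2.75-fold lower, a log2 ratio of -1.46 (interval -1.58 to -1.34). After thinning to 500 UMIs, 18.97% (interval 17.1% to 21.0%) and 6.82% (interval 5.64% to 8.15%) of endocardial-like cells had an H19 UMI. Lymphatic endothelial-like cells came next with 128 and 38.3 CPM. In the other 8 classes H19 lay between 21.2 and 59.3 CPM under the wild-type label and between 3.39 and 15.8 CPM under the knockout label, levels at which no class stood above B-like cells. H19 was lower under the knockout label in all 9 classes other than B-like cells, and log2 ratios in the 7 classes with at least 20 UMIs ran from -1.74 to -1.17. In B-like cells, where 5 and 1 UMIs were found, it was also lower.

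Most endocardial-like cells belonged to different clusters in the 2 libraries. Cluster 4, led by Cytl1, Npr3 and Inhba, held 1575 and 302 cells, and cluster 8, led by Nrg1, Selp and Smoc1, held 17 and 1326. Within cluster 4 H19 was 741 CPM under the wild-type label and 302 CPM under the knockout label, a log2 ratio of -1.29 (interval -1.55 to -1.05), so the difference was present within a single cluster. That cluster was not alike in the 2 libraries. Its summed endocardial markers were 8494 and 6481 CPM, and its vascular endothelial markers 8237 and 10481 CPM. The part of this shift in the H19 difference was not tested. Cluster 8 had 263 CPM under the knockout label (interval 246 to 281). Igf2 in cluster 4 was 14.99 and 19.9 CPM, from 26 and 10 UMIs, the opposite direction to the whole class and within counting error. H19 and Igf2 UMIs met in the same cells: of the 21 and 32 endocardial-like cells with an Igf2 UMI, 66.7% and 56.3% also had H19, against 28.3% and 15.04% of the others. The Igf2-positive cells were deeper, with medians of 1515 and 3019.5 UMIs against 1012 and 1978, and the part of depth in this was not tested.

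Igf1r (ENSMUSG00000005533, chromosome 7, 67952827 to 68233668, plus strand) was found in every class. Its level over all kept cells was 258 CPM under the wild-type label and 302 CPM under the knockout label. Smooth muscle-like cells had the highest values, 445 CPM (interval 275 to 679.8) and 628 CPM (interval 529 to 739), from 50 and 99 cells. The summed smooth muscle markers of that class were 15078 and 8565 CPM and its fibroblast markers 2541 and 8970.5 CPM. The part of fibroblast RNA in these levels was not tested. Under the wild-type label the intervals of the 7 highest classes overlapped their neighbours. Cardiomyocyte-like cells, the cell type the labels name, had 190.0 and 176 CPM, a log2 ratio of -0.11 (interval -0.28 to 0.06). Pericyte-like cells, which wrap capillaries, had 266 and 461 CPM, a log2 ratio of 0.79 (interval 0.48 to 1.10). Vascular endothelial-like cells were at 287 and 219.9 CPM, giving a log2 ratio of -0.38 (interval -0.54 to -0.23). None of these reached 2-fold, and of the 10 classes only B-like cells did, with 13 and 21 UMIs. In the 4 cardiomyocyte-like clusters Igf1r lay between 134 and 245 CPM under the wild-type label and, in the 3 that held at least 50 cells there, between 151 and 296 CPM under the other.

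**Figure D2:**
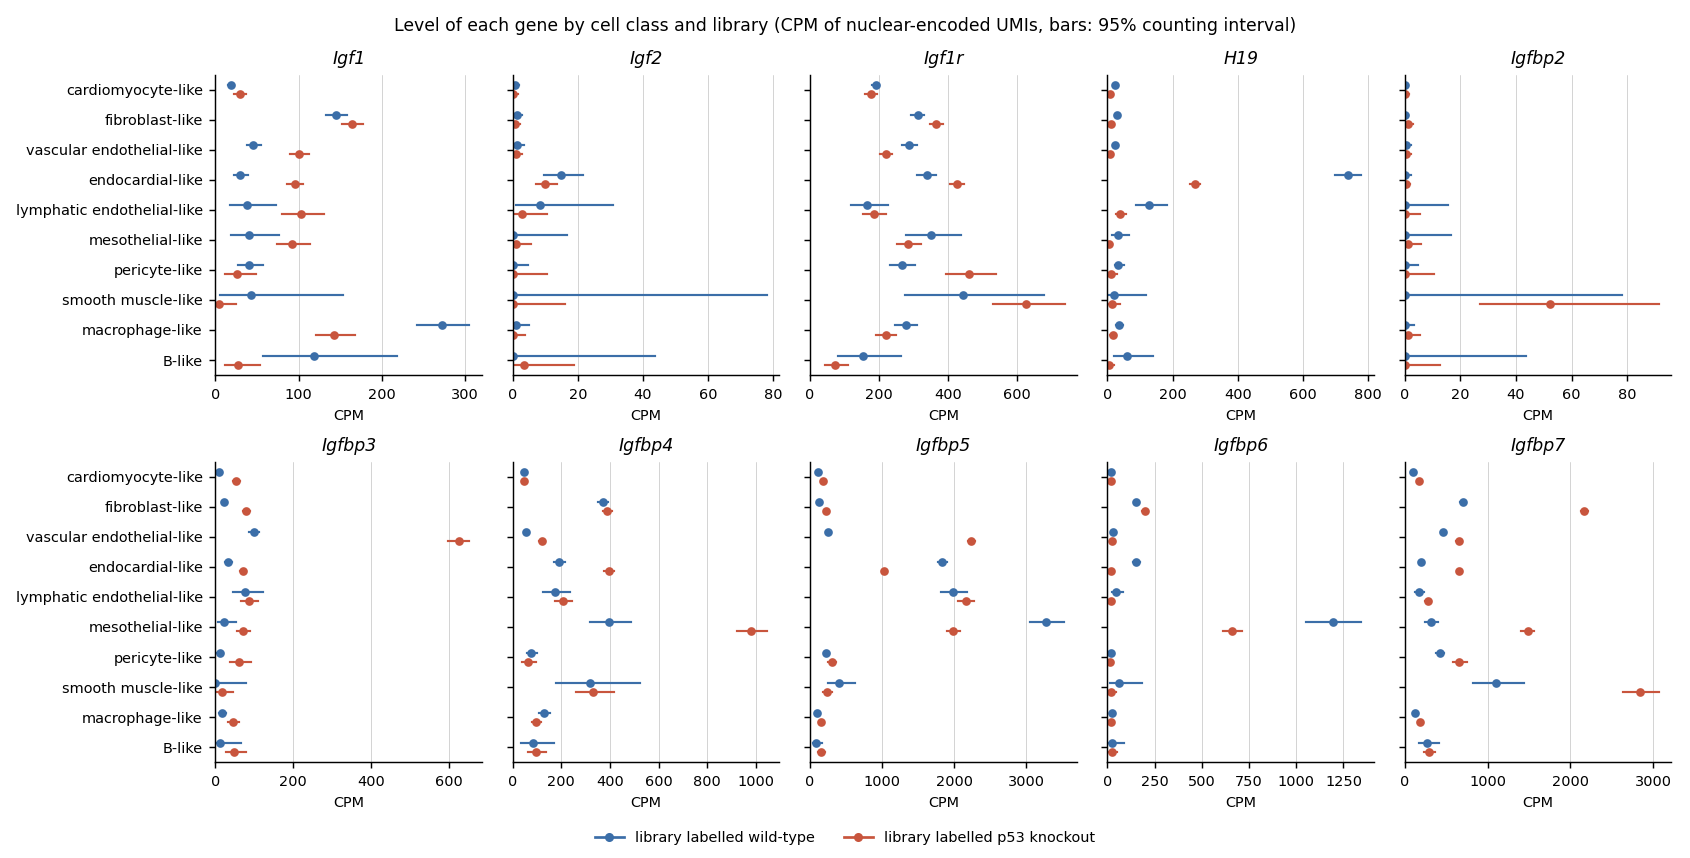
Level of each gene (x axis, CPM of nuclear-encoded UMIs, linear, own scale per panel) in the 10 classes with at least 50 cells in both libraries; points are single libraries, blue labelled wild-type and red labelled p53 knockout, and bars are 95% counting intervals. H19 stands out in endocardial-like cells at 738 and 268 CPM, and Igfbp5 in vascular endothelial-like cells differs from 242 to 2241 CPM.

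Igfbp3, the main carrier of IGFs in blood, was highest in vascular endothelial-like cells in both libraries. It was 99.1 CPM (interval 87.0 to 112, 244 UMIs) under the wild-type label and 624 CPM (interval 597 to 652, 2035 UMIs) under the knockout label, 6.29-fold higher, a log2 ratio of 2.65 (interval 2.46 to 2.85). After thinning, 3.86% and 14.8% of these cells had an Igfbp3 UMI. Outside that class the levels also differed but were low: 7.94 and 53.1 CPM in cardiomyocyte-like, 21.5 and 79.3 CPM in fibroblast-like, and 16.6 and 44.3 CPM in macrophage-like cells. B-like cells had 11.9 CPM from 1 UMI and 47.4 CPM from 14 UMIs, and only vascular endothelial-like cells stood above them in either library. The difference was present within single clusters. Cluster 1 had 86.2 and 334 CPM, a log2 ratio of 1.96 (interval 1.57 to 2.34), and cluster 7, led by Btnl9, Depp1 and Sema3g and holding 220 and 1186 cells, was at 155 and 750 CPM, with a log2 ratio of 2.26 (interval 1.80 to 2.81). Among the finer vascular clusters the highest level was 2119.8 CPM, in an angiogenic-like cluster led by Kit, Kcnj2 and Tll1 that held 177 cells under the knockout label and 1 under the wild-type label. That cluster held 23.3% of all Igfbp3 UMIs of its library. Arterial-like cells, from 108 and 61 cells, had 123 and 595 CPM, and venous-like cells had 121 and 275 CPM.

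Igfbp5, a binding protein that attaches to matrix, showed the largest ratio of any of the 10 genes in any class. In vascular endothelial-like cells it was 242 CPM (interval 223 to 263, 597 UMIs) under the wild-type label and 2241 CPM (interval 2189.6 to 2293, 7306 UMIs) under the knockout label, 9.24-fold higher, a log2 ratio of 3.21 (interval 3.09 to 3.33). After thinning, 6.85% and 22.2% of these cells had an Igfbp5 UMI, against 3.61% and 6.72% of B-like cells. Most of these UMIs came from 1 group of cells. The unnamed vascular cluster led by Sema3a, Adamtsl1 and Inhba held 413 cells under the knockout label and 17 under the wild-type label, and its level was 6770.0 CPM from 6037 UMIs, 36.0% of the Igfbp5 UMIs of that library. In the 17 cells of the other library it was 3028 CPM from 73 UMIs. Within cluster 1 the log2 ratio was 1.29 (interval 0.99 to 1.58) and within cluster 7 it was 1.59 (interval 0.93 to 2.42), so both were higher and the size was smaller. The finer clusters with at least 50 cells of each library were not all alike. In venous-like cells the levels were 377 and 1368 CPM, giving a log2 ratio of 1.86. An unnamed cluster led by Btnl9, Papln and Tbx3, the largest under the knockout label (96 and 756 cells), was at 144 and 179 CPM, giving a log2 ratio of 0.26 (interval -0.47 to 1.21). In an unnamed cluster led by Kcnip4, Cyp1b1 and Ctss (52 and 93 cells) the direction turned, with 835 and 493 CPM, a log2 ratio of -0.76 (interval -1.44 to -0.07). The 10 leading genes of that cluster also included C1qb and F13a1, macrophage markers, and Postn, a fibroblast marker. The part of RNA from other cell types in that ratio was not tested.

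In endocardial-like cells Igfbp5 was 1837 CPM under the wild-type label and 1031 CPM under the knockout label, a log2 ratio of -0.83 (interval -0.90 to -0.77). This direction turned within cluster 4, where the level was 1856 CPM (interval 1793 to 1921) and 6380.1 CPM (interval 6161 to 6605), a log2 ratio of 1.78 (interval 1.71 to 1.85). Cluster 4 was not alike in the 2 libraries: its summed endocardial markers were 8494 and 6481 CPM and its vascular endothelial markers 8237 and 10481 CPM, and their part in this was not tested. Cluster 8, which held most of the class under the knockout label, had 244 CPM. The lower class level therefore goes with the cells that were in cluster 8, and the higher level within cluster 4 rested on 302 cells. Mesothelial-like cells had 3281 CPM (interval 3047 to 3528) and 1990.1 CPM (interval 1902 to 2081), a log2 ratio of -0.72 (interval -0.84 to -0.60). Their summed fibroblast markers were 5027 and 8041 CPM and their mesothelial markers 6094 and 7345 CPM. The part of fibroblast RNA in that ratio was not tested. Lymphatic endothelial-like cells had 1991 and 2169 CPM, with overlapping intervals. Fibroblast-like cells had 126 and 226 CPM. By the CPM intervals only the second (212 to 241) lay above that of B-like cells (111 to 204). After thinning, 9.05% (interval 7.83% to 10.4%) of fibroblast-like and 6.72% (interval 3.89% to 10.7%) of B-like cells had an Igfbp5 UMI under the knockout label, with overlapping intervals.

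**Figure D3:**
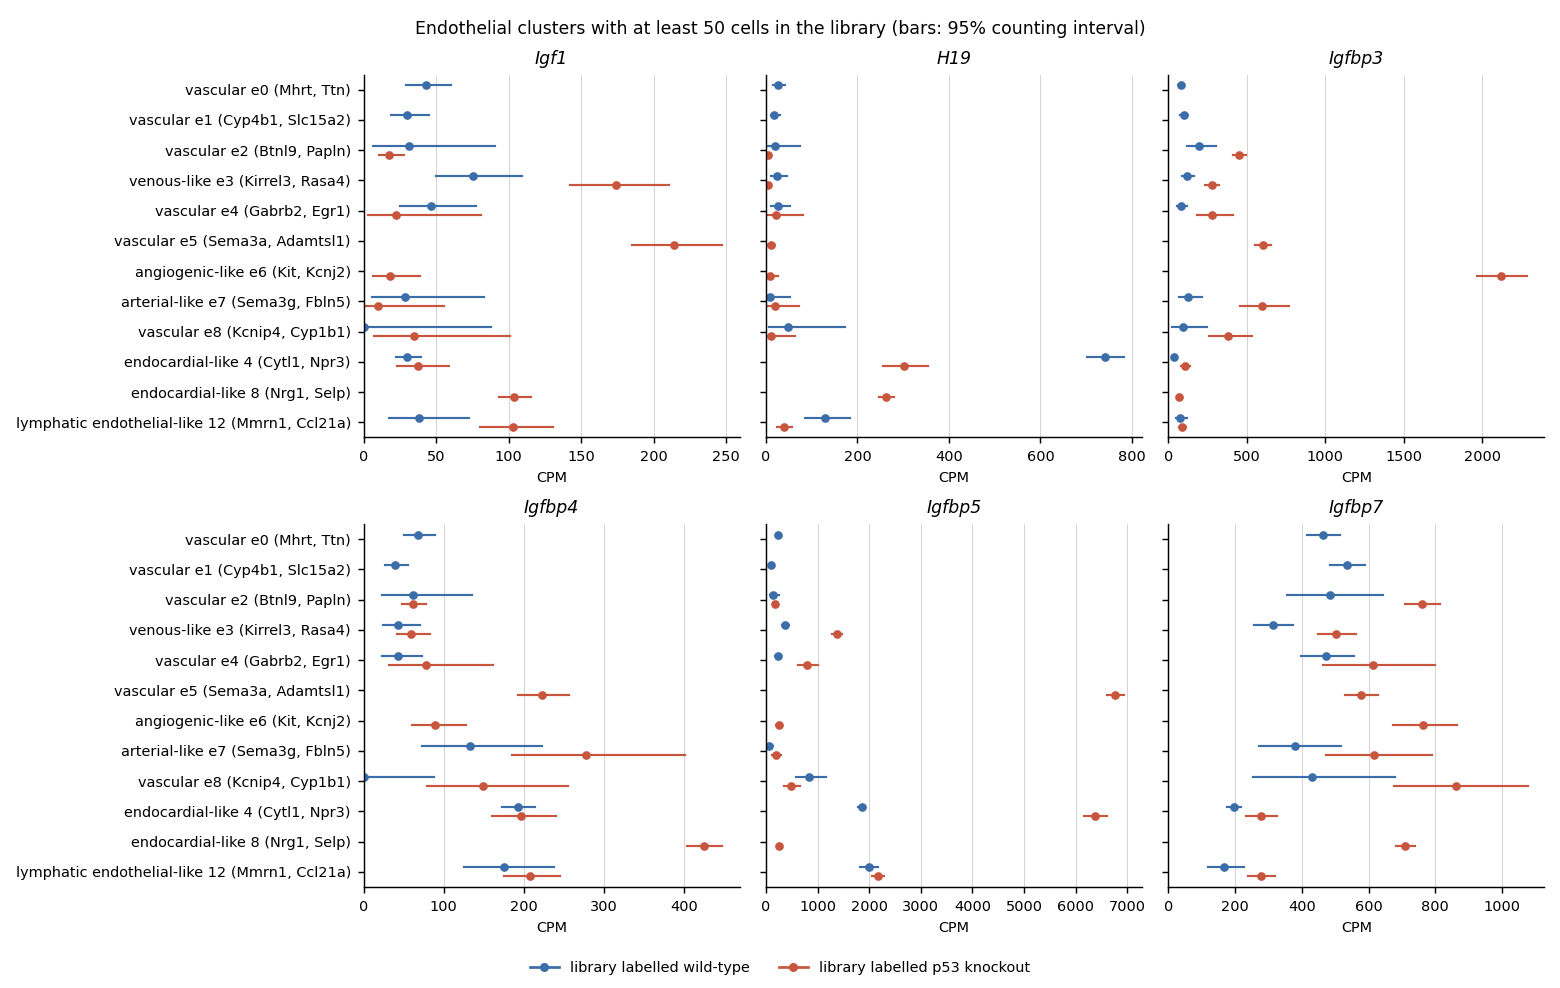
Level of 6 of the genes (x axis, CPM, linear) in the 9 vascular endothelial-like clusters (e0 to e8, each with its 2 leading genes), the 2 endocardial-like clusters and the lymphatic cluster; a point is shown where a library held at least 50 cells, and bars are 95% counting intervals. Igfbp3 reached 2119.8 CPM in e6, Igfbp5 reached 6770.0 CPM in e5 and 6380.1 CPM in endocardial-like cluster 4 under the knockout label, and H19 was lower under that label in cluster 4 and in the lymphatic cluster.

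Igfbp7 (ENSMUSG00000036256, chromosome 5, 77349240 to 77408041, minus strand) was highest in smooth muscle-like cells, with 1101 CPM (interval 822 to 1444) under the wild-type label and 2846 CPM (interval 2632 to 3073) under the knockout label, a log2 ratio of 1.36 (interval 0.96 to 1.81). The summed level of the 9 smooth muscle markers in those cells was 15078 and 8565 CPM. That of the 13 fibroblast markers was 2541 and 8970.5 CPM, and the part of fibroblast RNA in the Igfbp7 difference was not tested. Fibroblast-like cells had 699 CPM (interval 671 to 727) and 2170.2 CPM (interval 2126 to 2215), 3.10-fold higher, a log2 ratio of 1.63 (interval 1.57 to 1.70). After thinning, 22.7% and 50.6% of them had an Igfbp7 UMI, against 7.23% and 10.9% of B-like cells. Fibroblast-like cells were also held by different clusters: cluster 0, led by Abca6, Lvrn and Abca8a, held 3013 and 159 cells, and cluster 3, led by Cilp, Nox4 and Postn, genes of activated matrix-forming fibroblasts, held 120 and 1864. Cluster 0 was named only because Cdh19, a Schwann cell marker among its leading genes, was dropped after the data were seen. With Cdh19 kept, these cells could be compared only by cluster number, so the class values of fibroblast-like cells rest on that choice. Within cluster 0 Igfbp7 was 653 and 1160 CPM, a log2 ratio of 0.83 (interval 0.62 to 1.03). Within cluster 3 it was 1578 and 2215 CPM, a log2 ratio of 0.49 (interval 0.31 to 0.67). Both differences were smaller than that over the whole class, and cluster 3 was the higher of the pair in each library. Mesothelial-like cells had 315 and 1486 CPM and endocardial-like cells had 196 and 655 CPM, log2 ratios of 2.23 (interval 1.89 to 2.60) and 1.74 (interval 1.58 to 1.91). Under the wild-type label neither level was above that of B-like cells. Between the labels the summed fibroblast markers in mesothelial-like cells went from 5027 to 8041 CPM, the smooth muscle markers from 194 to 809 CPM and the valve interstitial markers from 387 to 1097 CPM. In endocardial-like cells the fibroblast markers were 3542 and 3836 CPM and the smooth muscle markers 205 and 328 CPM. Their part in these Igfbp7 differences was not tested. Vascular endothelial-like cells were at 459 and 651 CPM, giving a log2 ratio of 0.50. Igfbp7 was higher under the knockout label in all 9 classes other than B-like cells, where it was 273 and 291 CPM. Of these, cardiomyocyte-like, macrophage-like and lymphatic endothelial-like cells were above B-like cells in neither library. Polr2b overlaps Igfbp7 on the other strand.

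Igfbp4 (ENSMUSG00000017493, chromosome 11, 99041244 to 99054392, plus strand), which is cut by the protease PAPP-A, was highest in mesothelial-like cells, with 396 CPM (interval 318 to 488, 88 UMIs) under the wild-type label and 983 CPM (interval 921 to 1047, 955 UMIs) under the knockout label, a log2 ratio of 1.30 (interval 0.99 to 1.64). The summed fibroblast markers of that class were 5027 and 8041 CPM, and their part in this was not tested. Fibroblast-like cells were at 373 and 389 CPM, giving a log2 ratio of 0.06 (interval -0.04 to 0.17). In endocardial-like cells it was 192 and 395 CPM, with a log2 ratio of 1.04 (interval 0.87 to 1.22). Within cluster 4 the endocardial-like levels were 193 and 197 CPM, a log2 ratio of 0.04 (interval -0.31 to 0.36), and cluster 8 had 424 CPM, so the difference over the class was not present in the shared cluster. Vascular endothelial-like cells had 54.0 and 121 CPM, neither above B-like cells, which had 83.0 and 94.9 CPM.

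Igfbp6 (ENSMUSG00000023046, chromosome 15, 102144362 to 102149511, plus strand), a binding protein with a preference for IGF2, was highest in mesothelial-like cells in both libraries. Fibroblast-like cells stood above B-like cells in both, and endocardial-like cells under the wild-type label alone. Mesothelial-like cells had 1193 CPM (interval 1053 to 1345, 265 UMIs) under the wild-type label and 659.6 CPM (interval 609.5 to 713, 641 UMIs) under the knockout label, a log2 ratio of -0.86 (interval -1.06 to -0.64). The summed fibroblast markers of that class were 5027 and 8041 CPM, and the part of fibroblast RNA in that ratio was not tested. Fibroblast-like cells were at 153 and 198 CPM, giving a log2 ratio of 0.37 (interval 0.21 to 0.53). Within fibroblast-like clusters 0 and 3 that ratio was -0.09 and -0.59, so the higher class level was not present within either. In endocardial-like cells the levels were 151 CPM (interval 133 to 170.4, 265 UMIs) and 21.2 CPM (interval 16.9 to 26.2, 83 UMIs), 7.11-fold lower, a log2 ratio of -2.83 (interval -3.21 to -2.47), the lowest of the 71 ratios. Within cluster 4 it was 153 and 49.7 CPM, a log2 ratio of -1.59 (interval -2.27 to -1.03). The summed endocardial markers of that cluster also differed between the libraries, and their part in this was not tested. In vascular endothelial-like cluster 11, led by Stc1 and Adamtsl1, the 29 wild-type-label cells had 13 UMIs and the 505 knockout-label cells had 18.

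Igfbp2 (ENSMUSG00000039323, chromosome 1, 72824503 to 72852474, plus strand) was rarely detected, with 1 UMI under the wild-type label and 26 under the knockout label, a 15.7-fold ratio in CPM whose log2 interval ran from 1.92 to 9.88. Of the 26 UMIs, 12 were in smooth muscle-like cells, where the level was 52.3 CPM (interval 27.0 to 91.4) from 99 cells. Those 99 cells had summed smooth muscle markers of 8565 CPM and fibroblast markers of 8970.5 CPM. The part of fibroblast RNA in the Igfbp2 level was not tested. The 50 smooth muscle-like cells of the other library had 0 UMIs, and 3 UMIs there would have been 63.5 CPM, so a level like that of the knockout label was not detectable. Igfbp1 had 0 UMIs in both libraries.

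Among the pairs of 1 of the 10 genes and 1 of the 10 classes, 71 had at least 20 UMIs over both libraries. The rule for calling a pair was a 2-fold difference between the libraries, with no test behind it. By it 19 of the 71 were higher and 10 lower under the knockout label, where over all genes 7.7% of 97060 gene-class pairs were higher and 12.3% lower. The 10 genes were chosen with earlier results of these data known, and the pairs repeat them over classes of the same libraries. The shares here and below therefore do not show that these genes differ more than others. In vascular endothelial-like cells 4 of 8 genes (Igf1, Igfbp3, Igfbp4, Igfbp5) were higher and 1 (H19) lower, against 6.26% and 12.3% of all genes in that class. In endocardial-like cells 4 of 9 (Igf1, Igfbp3, Igfbp4, Igfbp7) were higher and 2 (H19, Igfbp6) lower, against 6.33% and 11.1%. In fibroblast-like cells 2 of 8 (Igfbp3, Igfbp7) were higher and 1 (H19) lower, against 6.71% and 11.4%. In cardiomyocyte-like cells Igfbp3 was higher and H19 lower among 8, against 4.15% and 16.1%, and in macrophage-like cells it was the same 2 genes among 8, against 7.09% and 11.7%. H19 supplied 7 of the 10 lower pairs, and Igfbp3 supplied 7 of the 19 higher pairs, which include classes where its level was no higher than in B-like cells. Igf1 in vascular endothelial-like and endocardial-like cells, and Igfbp7 in endocardial-like cells, were not above B-like cells under the wild-type label. Igfbp4 in vascular endothelial-like cells was above them in neither library. Nor was H19 in vascular endothelial-like, fibroblast-like, cardiomyocyte-like and macrophage-like cells. Counting UMIs after thinning to 500 per cell, the lower pairs were 4. The number of pairs tested and the share over all genes after thinning are not given here.

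**Figure D4:**
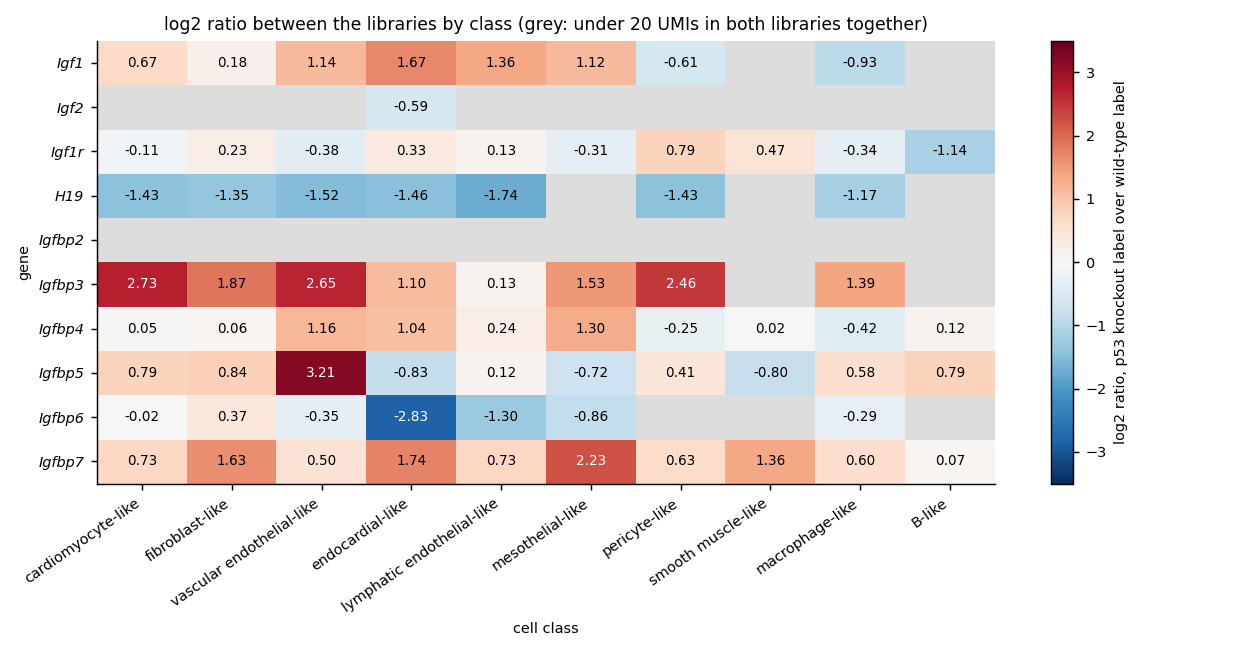
log2 ratio of CPM, library labelled p53 knockout over library labelled wild-type, for each gene (rows) in each class (columns); red is higher and blue lower under the knockout label, and grey marks pairs with fewer than 20 UMIs. H19 is blue in each of its 7 classes, Igfbp3 and Igfbp7 have no ratio below 0, and Igfbp5 goes from 3.21 in vascular endothelial-like to -0.83 in endocardial-like cells.

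Because the clusters differ so much between the libraries, the ratios over a class and within the clusters shared by both (at least 50 cells of each) are set side by side. In the 4 classes made of several clusters, H19 was lower in every shared cluster where it had at least 20 UMIs, with log2 ratios from -1.29 in endocardial-like cluster 4 to -0.66 in fibroblast-like cluster 0. Of these only cluster 4 had an interval clear of 0, and cluster 0, with 100 and 3 UMIs, had one from -3.18 to 0.72. Igfbp3 was higher in all of them, and Igfbp7 too. Igf1, Igf1r, Igfbp4, Igfbp5 and Igfbp6 changed direction between a class and at least 1 of its shared clusters. For Igf1 in fibroblast-like cells the class ratio of 0.18 stood beside 0.41 in cluster 0 and -0.88 in cluster 3.

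**Figure D5:**
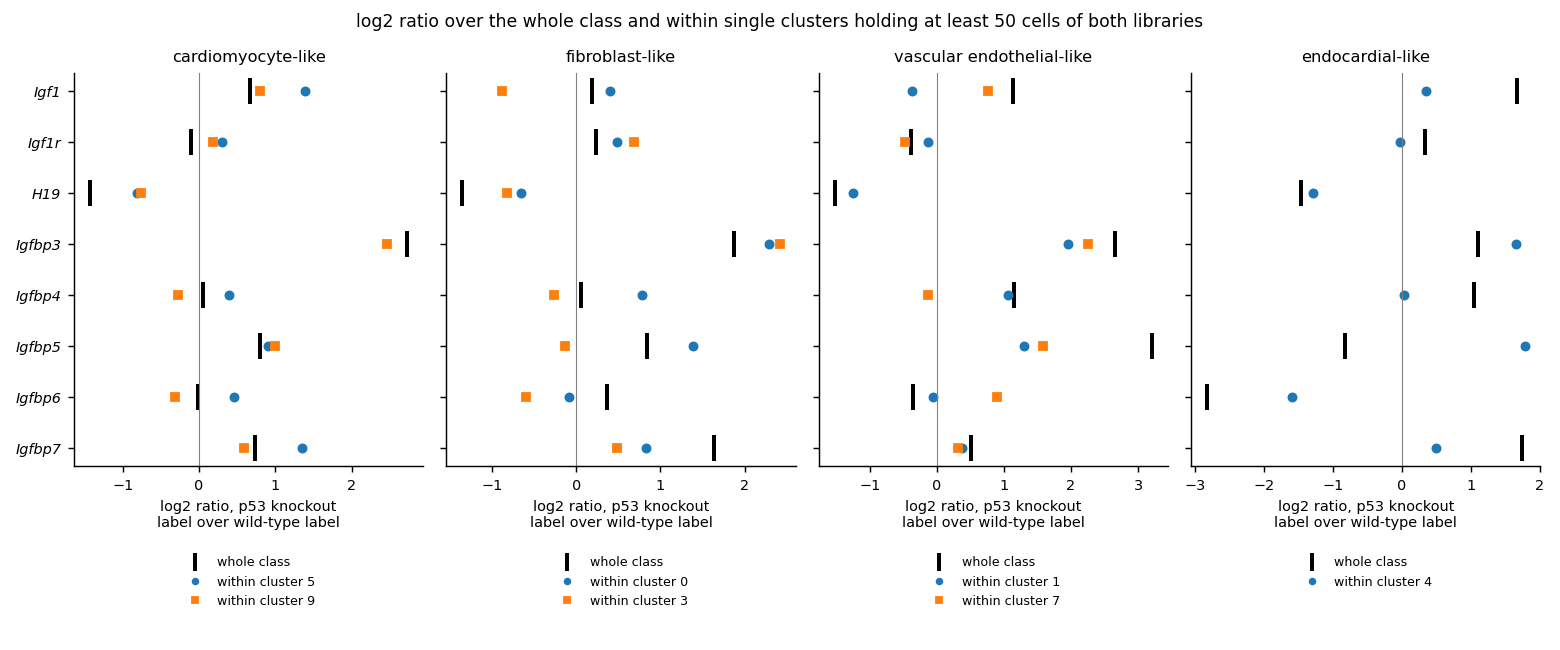
log2 ratio of CPM (x axis) for 8 genes over a whole class (black bar) and within each cluster of that class with at least 50 cells of both libraries (coloured points, at least 20 UMIs), in the 4 classes that have such clusters beside other clusters. In endocardial-like cells Igfbp5 is at -0.83 over the class and at 1.78 within cluster 4.

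The other genes of the pathway came from 3 lists, which were chosen with earlier results of these data known. Of 18 genes that carry, process or regulate IGFs, 12 were measured in vascular endothelial-like cells, 3 at least 2-fold higher and 2 lower, where 6.26% and 12.3% of all genes were. In endocardial-like cells 12 were measured, 4 higher and 3 lower, against 6.33% and 11.1%. Stc1, a stanniocalcin that blocks the protease PAPP-A, was 54.0 and 323 CPM in vascular endothelial-like cells, a log2 ratio of 2.58 (interval 2.32 to 2.85), and it was one of the leading genes of the vascular clusters with the highest Igfbp5. Stc2, its relative, was 19.2 and 60.4 CPM in fibroblast-like cells, a log2 ratio of 1.64. Ghr, the growth hormone receptor, whose signal induces Igf1 in liver, was 992 and 3475 CPM in endocardial-like cells, a log2 ratio of 1.81. Pcsk6, a proprotein convertase, was lower in all 5 of the largest classes, with log2 ratios of -2.29 (cardiomyocyte-like), -1.26 (fibroblast-like), -2.67 (macrophage-like), -1.78 (vascular endothelial-like) and -2.64 (endocardial-like). Htra1, a serine protease that cuts binding proteins, was 64.7 and 25.3 CPM in fibroblast-like cells.

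Of the 36 receptor signalling genes, 34 were measured in each of the 4 largest classes, and the medians of their log2 ratios were -0.13 in cardiomyocyte-like, -0.10 in fibroblast-like, -0.06 in vascular endothelial-like and -0.02 in endocardial-like cells, where all genes had medians of -0.26, -0.10, -0.09 and -0.11. In cardiomyocyte-like cells 2 were at least 2-fold higher and 0 lower, against 4.15% and 16.1% of all genes, and in fibroblast-like cells 0 passed 2-fold, against 6.71% and 11.4%. In vascular endothelial-like cells 3 were higher and 4 lower, close to the 6.26% and 12.3% of all genes, and in endocardial-like cells 1 was higher and 2 lower, against 6.33% and 11.1%. Itgb3, an integrin subunit that cooperates with the IGF1 receptor, was the highest, at 6.50 and 102 CPM in vascular endothelial-like cells, a log2 ratio of 3.93 (interval 3.25 to 4.79). Eif4ebp1, a brake on translation under mTOR control, was 28.3 and 69.6 CPM in cardiomyocyte-like cells, a log2 ratio of 1.30.

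Beside H19 the imprinted genes gave no single direction over the classes. Of 24, 18 were measured in endocardial-like cells, with 3 at least 2-fold higher and 1 lower, against 6.33% and 11.1% of all genes, and a median log2 ratio of 0.24. In vascular endothelial-like cells 16 were measured, with 2 higher and 3 lower, against 6.26% and 12.3%, and a median of -0.26. In macrophage-like cells 11 of 13 had a ratio below 0 (median -0.54), and in lymphatic endothelial-like cells 10 of 12 (median -0.26). Over all genes 5636 of 10780 and 4025 of 7860 did, with medians of -0.04 and -0.02. In fibroblast-like cells 12 of 19 had a ratio above 0, with a median of 0.05. Mest, a paternally expressed gene, was 7.98 and 89.8 CPM in endocardial-like cells, a log2 ratio of 3.44 (interval 2.73 to 4.38), opposite to H19 there. Cdkn1c, a maternally expressed inhibitor of the cell cycle, was 69.8 and 26.1 CPM in vascular endothelial-like cells. Plagl1, a transcription factor that acts on imprinted genes, was 11.6 and 31.5 CPM in fibroblast-like cells.

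The genes whose levels most resembled each of the 8 more abundant IGF genes were taken by the Pearson correlation of log2(CPM + 20) over 20 points, the 10 classes in each library. These points share libraries, depth and free RNA, so r is a description. H19 was most like Slc18a2 (0.92), Cytl1 (0.92) and Ahsg (0.91), of which Cytl1 and Ahsg were also leading genes of endocardial-like cluster 4. Igfbp5 was most like Shroom2 (0.94), Sema3f (0.90) and Itgb4 (0.88). Igfbp3 was most like Upp1 (0.86), Rhoc (0.84) and Depp1 (0.83), and Igfbp6 like Xkr4 (0.90), Mst1r (0.90) and Spon2 (0.90). Igfbp7 was most like Sparc (0.90), Nhs (0.85) and Bgn (0.85), of which Sparc and Bgn encode matrix proteins. Igfbp4 was most like Arf4 (0.91), Ddost (0.90) and Crtap (0.89), genes of the secretory pathway. Igf1 and Igf1r had weaker leading values, Metrnl (0.76) and Sgce (0.84). Among the 8 genes themselves the highest r was 0.70, for Igfbp4 and Igfbp6, and the lowest was -0.30, for H19 and Igfbp7.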

How the data were processed

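The authors deposited whole-number UMI counts per gene and barcode for 2 libraries. Per the submitters' processing notes they used Cell Ranger, Seurat and mm10 (no version is stated). Barcodes are 3 blocks of 9 bases, unlike those of the 10x kit that the labels' protocols name. Every barcode had at least 500 UMIs.

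Cells with at least 200 genes and at most 50% mitochondrial UMIs were kept. Scrublet's automatic threshold marked under 0.5% of cells, so the 8% with the highest scores were removed. Both libraries were clustered together with scanpy 1.11.5 and leidenalg 0.10.2 (2000 variable genes, 30 components, 15 neighbours, resolution 1), and vascular endothelial-like cells again with 1000. A cluster was named "X-like" where at least 3 markers of its class were 2-fold higher (20 CPM added), in at least 5% of its cells, with a mean log2 fold of at least 0.5, and no other class led its top 10 genes. Chosen after seeing the data: these thresholds, Cdh19 dropped as a Schwann marker, clusters led by cell cycle genes left unnamed, and 2 leading markers asked for neutrophils.

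UMIs were summed per class and library as CPM of nuclear-encoded UMIs. Ratios had 0.5 UMI added. Intervals are Poisson, Clopper-Pearson (shares) and conditional binomial (ratios), and cover counting error only; the ratio and its interval were tested on simulated data. The genes named were all 10 genes in each class with at least 50 cells per library; from each list, the highest and lowest ratio per class in the 5 largest classes (at least 100 UMIs in a library); and the 3 most similar genes (at least 200 UMIs). The 10 genes and the lists were chosen with earlier results of these data known. Positions are GENCODE vM21. Alternatives were other filters, resolutions, scalings and single clusters.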

Additional observations from a re-analysis of the deposited data

Results flagged for a closer look

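For 5 genes the libraries differed in opposite directions in 2 classes, with both counting intervals clear of 0. The difference between classes was not tested, because each library is a single sample. Log2 ratios are of the p53 knockout label over the wild-type label. For Igf1 the ratio was -0.93 in macrophage-like cells and 1.67 in endocardial-like cells, where the wild-type-label level was not above that of B-like cells. For Igf1r it was 0.79 in pericyte-like and -0.38 in vascular endothelial-like cells. For Igfbp4 it was 1.30 in mesothelial-like and -0.42 in macrophage-like cells, where the level in neither library was above that of B-like cells. For Igfbp5 it was 3.21 in vascular endothelial-like and -0.83 in endocardial-like cells, and the second turned to 1.78 within endocardial-like cluster 4. For Igfbp6 it was 0.37 in fibroblast-like and -2.83 in endocardial-like cells, and the first was not present within either shared fibroblast-like cluster.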

How the results depend on the processing

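The 71 ratios were recomputed under other filters, clusterings, scalings and depths. Of the 828 values this gave, 729 stayed within the counting interval of the reported value, 98 moved outside it, and 1 reversed a called ratio: Igf1 in mesothelial-like cells was -3.37 over cells of 500 to 1500 UMIs, from 5 UMIs. The sign was kept in 791. Of 29 ratios called at 2-fold, 28 kept their sign under all of these settings. Within single clusters, chosen after seeing the data, Igf1 in vascular endothelial-like cells reversed to -0.38 (cluster 1) and Igfbp4 to -0.13 (cluster 7). In its leading class, Igfbp3 was 2.44 after thinning, 1.96 in cluster 1 and 2.26 in cluster 7. Igf2 was -1.61 after thinning, -1.70 in cells of 500 to 1500 UMIs and 0.45 in cluster 4. H19 was -1.27 with TMM scaling, -1.59 as a mean over cells, -1.90 in cells of 500 to 1500 UMIs and -1.29 in cluster 4. In mesothelial-like cells Igfbp4 was 0.82 with at most 10% mitochondrial UMIs. Igfbp5 there was -1.07 with at least 500 genes, -1.08 with at most 10% mitochondrial UMIs, -0.45 with TMM, -0.55 as a mean over cells and -0.50 after thinning. Igfbp6 there was -1.36 with at least 500 genes, -1.24 with at most 10% mitochondrial UMIs, -0.59 with TMM, -0.56 as a mean over cells and -0.25 in cells of 500 to 1500 UMIs. The 10 lower pairs became 4 after thinning, 6 in cells of 500 to 1500 UMIs, 4 with at least 100 UMIs and 19 with no minimum. The number of pairs tested and the share over all genes under these settings are not given here, so these counts are not compared. In the settings with at least 500 genes or at most 10% mitochondrial UMIs, the doublet caller removed 24.3% and 37.7% of cells from the library labelled wild-type, so these also change the doublet filter. The causes were not tested. The TMM shift, which is subtracted from the ratios of a class and so raised them, reached -0.39 in smooth muscle-like cells. Igfbp2 had too few UMIs for a ratio by class. No paired analysis was possible because each group has 1 library. Depth limits Igf2, Igfbp2 and the classes under 100 cells most.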

Other observations

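A pair of clusters present almost only under the knockout label stayed unnamed. Cluster 13, led by Adam8, Cd300lf and Fgr, held 9 and 451 cells, and its knockout-label cells had 138 CPM Igf1 (99 UMIs) and 178 CPM Igfbp5. Cluster 16, led by Chl1, Gpc5 and Nrg3, held 2 and 336 cells, and had 61.6 CPM Igf1 and 283 CPM Igfbp5. Igfals, which encodes the acid-labile subunit of the circulating ligand complex, had 68 and 40 UMIs over all kept cells.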
